A study of Mus musculus with 18 samples.

Results

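The Ms4a genes encode membrane proteins that cross the membrane 4 times, and 7 of them, grouped here as the Ms4a family of myeloid cells, were followed: Ms4a3, Ms4a4b, Ms4a4c, Ms4a6b, Ms4a6c, Ms4a6d and Ms4a7. They were taken by name from 19505 measured genes, with the probe set of the highest mean signal for each symbol, and were selected on measured values of these same arrays, mainly the NeuT against BALB/c differences. Those differences are therefore given as a description. Counts of the genes past the model's threshold are printed beside the share of all genes that passed, and they are no independent test. RNA had been taken from bone marrow preparations of 18 mice, 1 array per mouse. The groups were 5 NeuT and 5 BALB/c mice of 12 weeks, and 4 NeuT and 4 BALB/c mice of 24 weeks. NeuT mice are known to carry an activated rat Erbb2 transgene under a mammary promoter. At both ages the NeuT mice are labelled as tumour-bearing, at an early stage of breast tumorigenesis at 12 weeks and a late stage at 24 weeks, so transgene, tumour and stage cannot be told apart. BALB/c mice are labelled as controls. The cells are labelled as mesenchymal stromal cells of femurs and tibias, enriched with beads that remove cells bearing CD45, Ter119, CD11b, CD11c, CD3, Gr1 or B220, of which CD11b and Gr1 are antigens of mature myeloid cells.

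As background, Ms4a proteins sit in the plasma membrane or inner membranes and are thought to act as partners of receptors and signalling enzymes. The best known are Ms4a1, the CD20 antigen of B cells, and Ms4a2, the beta chain of the high-affinity IgE receptor of mast cells and basophils. Ms4a3 is a marker of granulocyte-monocyte progenitors and acts on the cell cycle in human cells. Ms4a4c, Ms4a6b, Ms4a6c and Ms4a6d are known from monocytes and macrophages, and Ms4a7 from macrophages. Ms4a4b is best known from T cells, so the myeloid name covers it less well.

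The labelled cell type was set against marker genes. Elane and Mpo, the granule enzymes of neutrophil precursors, had signals of 13.62 to 14.24 and 13.45 to 14.02 on the log2 scale, all above 10.46, the 95th percentile of the negative control probe sets. Cxcl12 and Pdgfrb, known from stromal cells, had signals of 9.04 to 9.45 and 7.96 to 8.92, all under it. Blood-cell transcripts were thus measured at high signal in these preparations. In such bulk RNA, more cells of a type and more RNA per cell cannot be told apart. Of the 7 Ms4a genes only Ms4a3 lay above that 95th percentile of 10.46 in every array. All signals of Ms4a6d (at most 10.19) and Ms4a6b (at most 10.02) lay under it. So did those of Ms4a4c, apart from 10.73 in NeuT 12-week replicate 4, and Ms4a6c had signals on both sides. Array medians ran from 8.43 to 8.56, and the correlation of arrays across genes (not independent replicates) was 0.978 to 0.997. The arrays of NeuT 12-week replicate 4, NeuT 24-week replicate 1 and BALB/c 24-week replicate 3 correlated least with the others. Results of the 7 Ms4a genes are given without these 3 arrays where that changed a call. Calls of other genes are not given without them. Over all genes 274 passed the model's threshold at 24 weeks, and 15 did without these 3 arrays. The number of arrays limits the precision.

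All 7 genes lie on chromosome 19. Among the 11 protein-coding genes of that stretch in RefSeq GRCm38.p6 the order is Ms4a7, Ms4a4a, Ms4a4c, Ms4a4b, Ms4a6c, Gm8369, Ms4a6b, Ms4a4d, Ms4a6d, Ms4a2 and Ms4a3. The RefSeq promoter table held windows for 6 of the 7 genes, from 250 bases before to 50 bases after the start, with 2 windows for Ms4a7. The genes whose windows are most alike are shown as pairs, since they lie close together and their signals were higher together in 12-week NeuT mice. The first pair is Ms4a6b (Entrez gene 69774; chr19:11518309-11518608, plus strand) and Ms4a6c (Entrez gene 73656; chr19:11469118-11469417, plus strand). The capitals mark the letters GAAANNGAA, the core of interferon response sites.
Ms4a6b: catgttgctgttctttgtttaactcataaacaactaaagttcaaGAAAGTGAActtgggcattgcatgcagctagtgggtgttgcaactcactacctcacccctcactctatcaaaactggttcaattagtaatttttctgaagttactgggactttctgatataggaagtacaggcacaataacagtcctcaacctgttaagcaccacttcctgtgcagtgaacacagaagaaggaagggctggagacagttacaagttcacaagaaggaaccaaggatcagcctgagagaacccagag
Ms4a6c: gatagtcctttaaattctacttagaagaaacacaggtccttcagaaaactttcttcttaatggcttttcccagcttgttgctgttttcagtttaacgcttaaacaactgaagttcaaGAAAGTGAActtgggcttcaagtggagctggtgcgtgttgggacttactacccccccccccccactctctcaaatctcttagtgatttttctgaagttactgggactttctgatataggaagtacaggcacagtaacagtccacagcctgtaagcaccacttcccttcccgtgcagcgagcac
Of 220 aligned bases 189 were identical in this pair (85.9%), with a longest shared run of 48 bases. The match reads GAAAGTGAA in both, beginning 206 bases before the start in Ms4a6b and 133 bases before it in Ms4a6c.

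The second pair is Ms4a4c (Entrez gene 64380; chr19:11407411-11407710, plus strand) and Ms4a4b (Entrez gene 60361; chr19:11443308-11443607, plus strand). Here the capitals mark GAGGAA, an ETS site of the kind bound by PU.1, a transcription factor that myeloid cells depend on.
Ms4a4c: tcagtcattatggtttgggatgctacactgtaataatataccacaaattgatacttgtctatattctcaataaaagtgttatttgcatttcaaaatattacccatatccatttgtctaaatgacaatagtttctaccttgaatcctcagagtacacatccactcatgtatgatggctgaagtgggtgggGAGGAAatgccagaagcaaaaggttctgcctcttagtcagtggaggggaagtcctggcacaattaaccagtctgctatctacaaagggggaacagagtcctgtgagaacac
Ms4a4b: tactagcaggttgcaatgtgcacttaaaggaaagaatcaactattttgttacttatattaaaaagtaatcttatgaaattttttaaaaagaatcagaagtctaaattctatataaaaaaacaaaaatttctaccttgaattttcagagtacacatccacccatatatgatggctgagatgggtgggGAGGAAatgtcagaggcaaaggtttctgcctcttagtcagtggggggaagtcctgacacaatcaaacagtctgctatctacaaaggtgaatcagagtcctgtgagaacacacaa
This pair had 223 identical of 290 aligned bases (76.9%), and GAGGAA begins 61 bases before the start in Ms4a4c and 64 bases before it in Ms4a4b. Identity between windows of other member pairs, with 1 window for Ms4a7, was 51.8% to 62.8%. Ms4a3 (Entrez gene 170813; chr19:11640802-11641101, minus strand) is shown for a pair of matches that touch each other, GAGGAA followed by TTGCNNAA, the core of C/EBP sites; C/EBP factors drive granulocyte genes.
Ms4a3: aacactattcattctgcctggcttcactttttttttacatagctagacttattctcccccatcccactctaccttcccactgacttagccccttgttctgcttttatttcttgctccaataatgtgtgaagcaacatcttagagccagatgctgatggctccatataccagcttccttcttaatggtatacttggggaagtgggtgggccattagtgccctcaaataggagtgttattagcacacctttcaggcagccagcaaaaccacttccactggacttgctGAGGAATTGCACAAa
In Ms4a3 both matches lie after the start, from the base numbered 36 on. Over both strands of 32851 windows GAGGAA was found in 28.3%, TTGCNNAA in 10.8% and GAAANNGAA in 8.56%. Among the 7 member windows 4, 1 and 4 held them, the last in Ms4a6b, Ms4a6c and both Ms4a7 windows. The motifs do not overlap one another in the windows shown. A match describes letters only and shows no binding.

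At 12 weeks 6 of the 7 genes had higher signals in every NeuT mouse than in every BALB/c mouse. Over all genes 4.63% were separated in that way. The median log2 difference was 0.77 over the 7 genes and -0.03 over all genes. In the linear model 6 of 7 passed an adjusted p of 0.05 as higher, where 3.15% of all genes did. These counts restate the choice of the genes, and nothing is read from them. With the mean signals of neutrophil and B-cell marker genes in each array as covariates, 0 of the 7 passed by limma, where 0.0205% of all genes did. Before adjustment 5 of 7 had a limma p under 0.05 in that fit. The share of all genes was not counted there, so nothing is read from these 5.

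Ms4a6d (Entrez gene 68774), of the monocyte and macrophage group, differed most. Its log2 signals were 10.05, 9.41, 9.69, 9.98 and 8.87 in 12-week NeuT mice, against 8.12, 7.33, 8.03, 7.97 and 8.34 in 12-week BALB/c mice. The lowest NeuT mouse lay above the highest control, and the difference was 1.64 ± 0.22 (SE), or 3.13-fold. One BALB/c signal lay just under 7.35, the median of the negative controls. Ms4a4c, also known from monocytes, gave 10.13, 10.00, 10.14, 10.73 and 9.22 in 12-week NeuT mice, against 8.27, 7.93, 8.99, 8.62 and 8.82 in BALB/c mice of that age. It was 1.52 ± 0.24 (SE) higher, or 2.86-fold, and the groups did not overlap.

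Ms4a6c and Ms4a6b, the pair with alike promoters, were higher by smaller amounts. Ms4a6c gave 10.83, 10.82, 11.06, 11.26 and 10.47 in 12-week NeuT mice, against 9.80, 9.67, 10.05, 9.73 and 10.33 in 12-week BALB/c mice, a difference of 0.97 ± 0.15 (SE). The closest signals, 10.47 in NeuT and 10.33 in BALB/c, were those of replicate 5 in each group. For Ms4a6b the signals were 9.64, 9.80, 9.67, 10.01 and 9.39 in 12-week NeuT mice, against 8.90, 8.52, 9.17, 9.08 and 9.02 in 12-week BALB/c mice, a difference of 0.77 ± 0.14 (SE). Again no mouse of either group reached into the other.

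Ms4a3, the progenitor gene, had the narrowest groups. It gave 12.99, 12.95, 13.03, 12.88 and 12.80 in 12-week NeuT mice, against 12.66, 12.65, 12.73, 12.56 and 12.66 in 12-week BALB/c mice. The difference of 0.28 ± 0.077 (SE) was 1.21-fold, and the groups did not overlap. Ms4a3 was no longer past the threshold in 9 of 10 fits that left out 1 array, although its difference stayed at 0.25 to 0.31, nor after quantile normalisation once more (0.23) or cyclic loess (0.24).

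Ms4a4b and Ms4a7 had signals under the negative control median in every array, so their differences compare signals and the size of a change in transcript is not known. Ms4a4b gave 6.11, 6.42, 6.45, 6.45 and 6.06 in 12-week NeuT mice, against 5.51, 5.31, 5.82, 5.69 and 5.88 in 12-week BALB/c mice, which did not overlap and differed by 0.65 ± 0.14 (SE). Ms4a7 (Entrez gene 109225) gave 6.63, 6.75, 6.64, 7.12 and 6.61 in 12-week NeuT mice, against 6.75, 6.70, 6.64, 6.53 and 6.77 in 12-week BALB/c mice. These overlapped, with a difference of 0.07 ± 0.093 (SE). Ms4a7 was the 1 gene of the 7 that was not separated at this age.

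**Figure D1:**
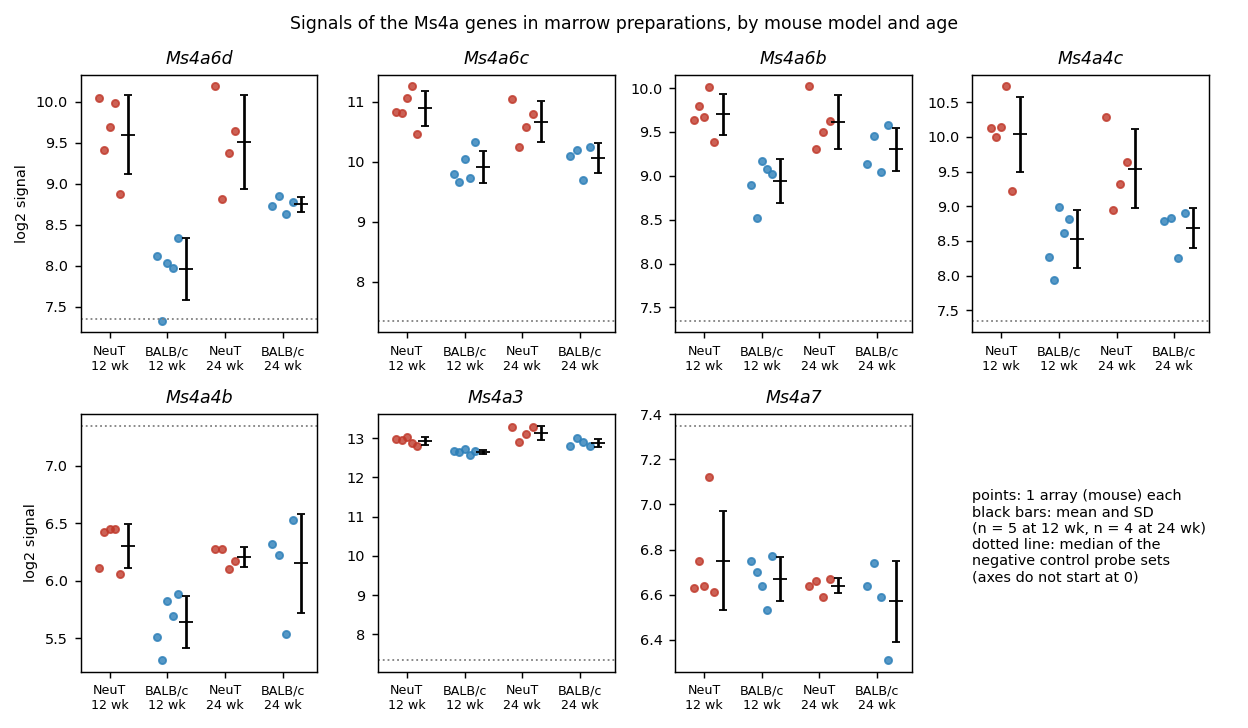
Log2 signals of the 7 Ms4a genes (vertical axis, each panel with its own range) in NeuT (red) and BALB/c (blue) mice of 12 and 24 weeks. Points are single mice, black bars the mean and SD (n = 5 at 12 weeks and 4 at 24 weeks), and the dotted line the negative control median of 7.35. At 12 weeks the red and blue points are apart in all panels but Ms4a7, and at 24 weeks they are apart for Ms4a4c alone.

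At 24 weeks all 7 genes again had positive differences, with a median of 0.31. Only Ms4a4c was separated. It gave 10.28, 8.94, 9.32 and 9.64 in 24-week NeuT mice, against 8.79, 8.83, 8.26 and 8.90 in 24-week BALB/c mice, a difference of 0.85 ± 0.27 (SE), or 1.80-fold. Of all genes 4.95% were separated in this direction. By limma 0 of 7 passed at 24 weeks, where 1.18% of all genes passed as higher. Before adjustment 4 of 7 had a limma p under 0.05, as did 13.2% of all genes. Nothing is read from these counts either.

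Ms4a6d gave 10.19, 8.82, 9.38 and 9.64 in 24-week NeuT mice, against 8.73, 8.85, 8.63 and 8.78 in 24-week BALB/c mice, and was 0.76 ± 0.24 (SE) higher. A single NeuT mouse, replicate 2, reached down into the controls. The same mouse gave the lowest Ms4a6c signal, where the NeuT mice had 11.05, 10.24, 10.58 and 10.80, against 10.10, 10.20, 9.70 and 10.25 in BALB/c mice, a difference of 0.60 ± 0.17 (SE). Without NeuT 24-week replicate 2, 4 of 7 passed as higher (Ms4a3, Ms4a4c, Ms4a6c and Ms4a6d), and so did 2.51% of all genes. Ms4a3 gave 13.29, 12.91, 13.10 and 13.28 in 24-week NeuT mice, against 12.80, 13.01, 12.91 and 12.80 in 24-week BALB/c mice. Its difference of 0.26 ± 0.086 (SE) was close to that at 12 weeks, and the groups overlapped through the same NeuT mouse. For Ms4a6b the NeuT mice had 10.02, 9.30, 9.50 and 9.62, against 9.13, 9.45, 9.04 and 9.58 in BALB/c mice, which overlapped, with a difference of 0.31 ± 0.16 (SE). Ms4a4b gave 6.28, 6.28, 6.10 and 6.17 in 24-week NeuT mice, against 6.32, 6.22, 5.54 and 6.53 in BALB/c mice, and Ms4a7 gave 6.64, 6.66, 6.59 and 6.67 against 6.64, 6.74, 6.59 and 6.31. The differences of these 2 dim genes were 0.05 and 0.07.

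The difference between the NeuT effects, 24 minus 12 weeks, was negative for all 7 genes, with a median of -0.46. It was -0.89 (95% interval -1.56 to -0.22) for Ms4a6d, -0.67 (-1.41 to 0.08) for Ms4a4c and -0.60 (-1.03 to -0.17) for Ms4a4b. For Ms4a3 it was -0.01 (-0.25 to 0.23). By limma 0 of 7 passed, with adjusted p from 0.711 to 0.996, where 0.0103% of all genes passed. Before adjustment 3 of 7 had a limma p under 0.05, as did 6.5% of all genes. The genes had been chosen partly for large effects at 12 weeks, a choice that favours smaller effects at 24 weeks.

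Age was compared within each mouse model. In BALB/c mice Ms4a6d was higher in all 24-week mice than in all 12-week mice, by 0.79 ± 0.23 (SE), and Ms4a3 likewise by 0.23 ± 0.082 (SE). Over all genes 3.38% were separated in this way. The other members had values of 0.51 for Ms4a4b, 0.36 for Ms4a6b, 0.17 for Ms4a4c, 0.15 for Ms4a6c and -0.10 for Ms4a7, with overlapping groups. By limma 0 of 7 passed (the lowest adjusted p was 0.0917, for Ms4a6d), where 0.579% of all genes passed. Before adjustment 4 of 7 had a limma p under 0.05, as did 15.3% of all genes. Ms4a4b alone passed without BALB/c 24-week replicate 3, at 0.72 (adjusted p = 0.00603), in a fit where 3.02% of all genes passed. Without the 3 arrays that correlate least 3 of the 7 passed, and 6.55% of all genes did.

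In NeuT mice none of the 7 genes was separated by age, where 2.96% of all genes were higher in all 24-week mice. Ms4a4c was 0.50 lower at 24 weeks (95% interval -1.03 to 0.03), Ms4a6d had a value of -0.10 (-0.57 to 0.38), and Ms4a3 one of 0.22 (0.05 to 0.38). By limma 0 of 7 passed, with adjusted p from 0.257 to 0.920, where 0.0359% of all genes passed. Before adjustment 1 of 7 had a limma p under 0.05, as did 12.6% of all genes. These age contrasts share the 12-week arrays with the differences that chose the genes. Any processing batch of the ages, which the labels do not give, cannot be told apart from age.

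**Figure D2:**
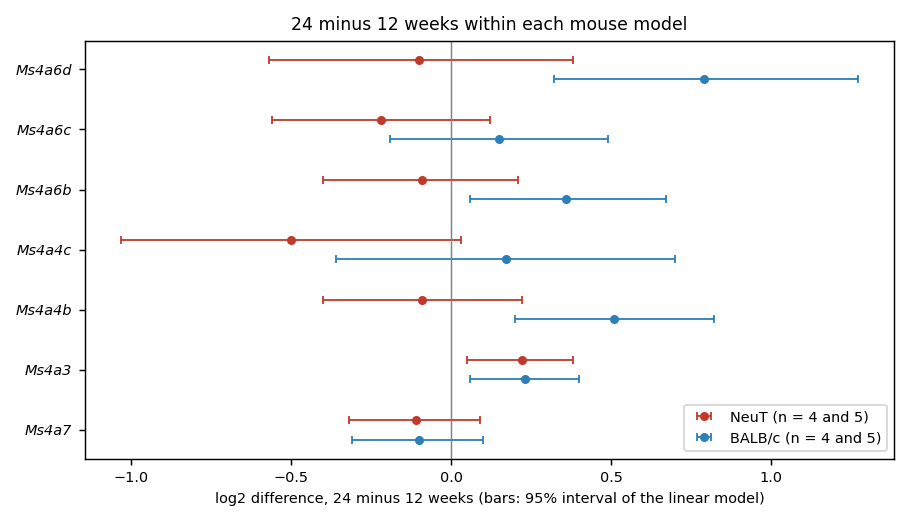
Log2 difference, 24 minus 12 weeks, of each Ms4a gene in NeuT (red) and BALB/c (blue) mice; points are the linear model's estimates and bars their 95% intervals (n = 4 and 5 in each model). For Ms4a6d the blue point lies at 0.79 and the red one at -0.10, and for Ms4a3 they lie at 0.22 (NeuT) and 0.23 (BALB/c).

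The rest of the family was read on the same arrays. Of 13 further genes, Ms4a1, Ms4a2, 9 other Ms4a genes and the related Tmem176a and Tmem176b, 5 had all signals under the negative control median. At 12 weeks 3 rose and 0 fell in NeuT mice, with a median log2 difference of 0.02. Tmem176b, a membrane protein of dendritic cells and macrophages, gave 11.27, 11.39, 11.38, 11.67 and 11.29 in 12-week NeuT mice, against 10.84, 10.61, 10.90, 10.88 and 10.88 in BALB/c mice. It rose by 0.58 ± 0.082 (SE; limma adjusted p = 0.000587), and again at 24 weeks by 0.46 ± 0.091 (SE; limma adjusted p = 0.0233), without overlap at either age. Tmem176a, its neighbour, rose by 0.36 ± 0.099 (SE) at 12 weeks (limma adjusted p = 0.0419).

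Ms4a2 rose by 0.62 ± 0.12 (SE) at 12 weeks (limma adjusted p = 0.00492). Its signals were 7.90, 7.78, 8.20, 8.25 and 7.84 in 12-week NeuT mice, against 7.16, 7.14, 7.43, 7.49 and 7.66 in 12-week BALB/c mice. At 24 weeks its value was 0.02 (limma adjusted p = 0.969). Fcer1a, the alpha chain of the same IgE receptor, rose by 0.41 at 12 weeks (limma adjusted p = 0.0113) and had a value of 0.07 at 24 weeks. Ms4a1, the B-cell gene, had values of -0.07 and -0.46 at 12 and 24 weeks (limma adjusted p = 0.767 and 0.0988). Of 8 genes known to act with Ms4a proteins 7 were measured, and Tyrobp, an adaptor of myeloid receptors, rose by 0.36 at 12 weeks (limma adjusted p = 0.0391) as the 1 that passed in any comparison.

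**Figure D3:**
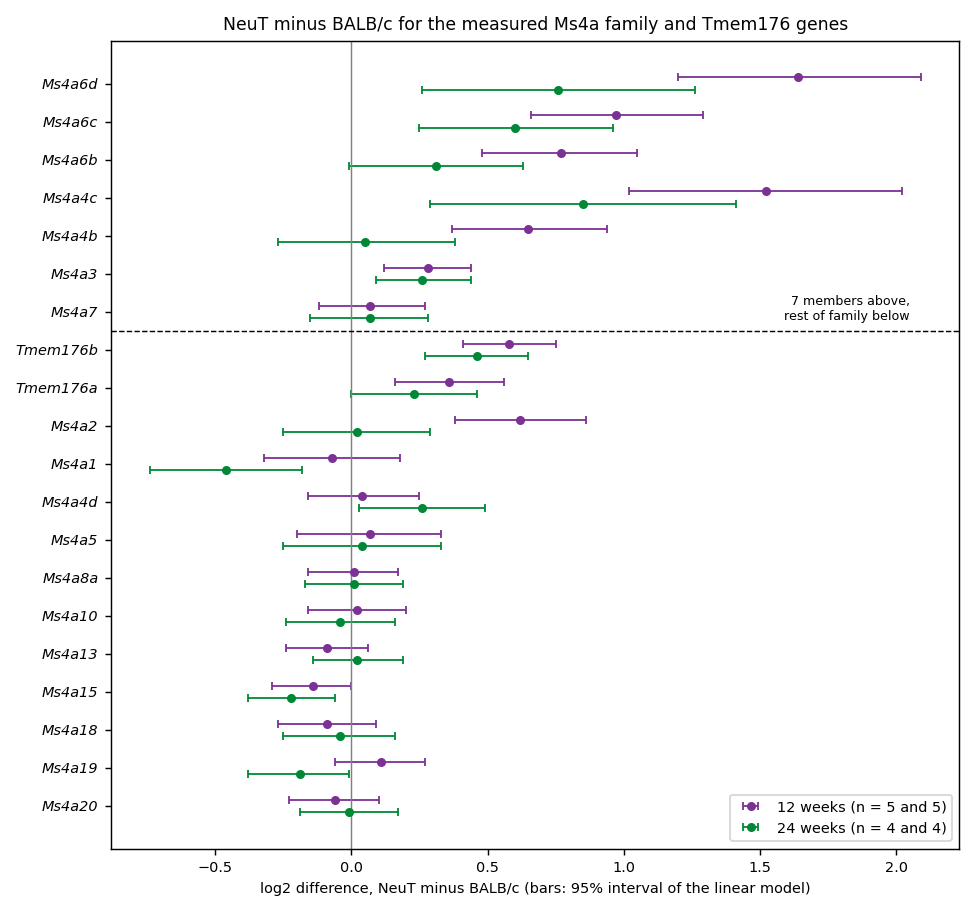
Log2 difference, NeuT minus BALB/c, of 20 Ms4a family and Tmem176 genes at 12 weeks (purple, n = 5 and 5) and 24 weeks (green, n = 4 and 4), with 95% intervals of the linear model. The 7 genes followed here are above the dashed line. Ms4a6d at 1.64 and Ms4a4c at 1.52 lie farthest to the right at 12 weeks, and most of the family lies around 0.

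Marker lists were read beside these values. Genes said to rise or fall passed the adjusted p of 0.05 in the fit over all arrays. In a fit on only the groups compared, 1 gene of all passed at 24 weeks. At most 1 of the 24-week calls of single genes therefore holds in that fit. Over all genes 3.15% passed as higher at 12 weeks and 1.18% at 24 weeks, and 3.84% and 1.4% in either direction. Over all genes 21.0% had an unadjusted limma p under 0.05 at 12 weeks and 13.2% at 24 weeks. Of 11 monocyte genes 6 rose at 12 weeks (Ccr2, Csf1r, Lyz2, Fcgr1, F13a1 and Ctss) and 1 at 24 weeks (Ly6c2). Before adjustment 8 of the 11 had a limma p under 0.05 at 12 weeks and 6 at 24 weeks. Ccr2, which draws inflammatory monocytes out of the marrow, rose by 1.25 ± 0.13 (SE; limma adjusted p = 9.02e-06) at 12 weeks and had a value of 0.48 at 24 weeks (limma adjusted p = 0.109). Like Ms4a6d it was higher in 24-week than in 12-week BALB/c mice, by 0.58 (limma adjusted p = 0.0504), which does not pass. Csf1r, the receptor of macrophage colony-stimulating factor, had differences of 0.46 and 0.43. The list mean lay between 10.55 and 10.89 in 12-week NeuT mice and between 10.22 and 10.40 in 12-week BALB/c mice. At 24 weeks it lay between 10.55 and 11.04 in NeuT mice and between 10.28 and 10.56 in BALB/c mice.

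Of 14 genes of maturing neutrophils 6 rose at 12 weeks and 7 at 24 weeks, with differences for Ltf (lactoferrin) of 1.52 and 1.82 and for Camp (cathelicidin) of 0.63 and 0.96. The neutrophil list mean lay between 9.93 and 11.40 in 12-week NeuT mice and between 9.79 and 10.45 in 12-week BALB/c mice. At 24 weeks it lay between 10.27 and 11.26 in NeuT mice and between 9.74 and 10.28 in BALB/c mice. In 10 genes of granulocyte-monocyte precursors, the list nearest to Ms4a3 by known biology, Nkg7 alone rose, at both ages, and 4 and 7 genes had an unadjusted p under 0.05. The precursor list mean lay between 12.09 and 12.23 in 12-week NeuT mice and between 11.96 and 12.06 in 12-week BALB/c mice. At 24 weeks it lay between 12.21 and 12.47 in NeuT mice and between 11.95 and 12.17 in BALB/c mice, so the groups were apart at both ages. Elane had differences of 0.07 and 0.22. Mpo averaged 13.88 in NeuT and 13.89 in BALB/c mice at 12 weeks (limma adjusted p = 0.991) and had a difference of 0.19 at 24 weeks. B-cell genes ran the other way, with a median of -0.57 over 12 genes at 12 weeks, 0 passing by limma and 9 with an unadjusted p under 0.05. At 24 weeks 3 B-cell genes fell (Blk, Spib and Pou2af1), while Cd79b and Pax5, of the B-cell receptor and its lineage factor, had values of -0.65 and -0.75 at 12 weeks and -0.87 and -1.01 at 24 weeks.

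Other cell types gave few calls at 12 weeks. Of 11 resident macrophage genes C1qc fell and none rose, and C1qa and Adgre1 had differences of 0.08 and 0.21, with C1qa under the negative control median in every array. T and NK cell genes had 0 of 11 passing by limma at 12 weeks (2 with an unadjusted p under 0.05) and 3 lower at 24 weeks, Cd3e (-0.58), Cd2 (-1.03) and Gzma. The T and NK list had a median of -0.12 at 12 weeks, and the dim Ms4a4b signal, from a gene known in T cells, stood higher in NeuT mice. Which cells gave that signal was not tested. Dendritic cell genes had 0 of 10 passing at either age by limma (1 and 2 with an unadjusted p under 0.05), with values of 0.13 for both Siglech and Itgax at 12 weeks. In the mast cell and basophil list Fcer1a alone rose, and Cpa3, a mast cell protease, had a value of 0.31 at 12 weeks. Before adjustment 6 of its 9 genes had a limma p under 0.05 at 12 weeks, with a list median of 0.29. At 24 weeks 2 did, with a list median of 0.0. Of 10 stromal genes 0 passed at 12 weeks by limma (1 with an unadjusted p under 0.05), and Igfbp5 rose at 24 weeks; Cxcl12 had a value of -0.18 at 12 weeks and Pdgfrb one of 0.43 at 24 weeks.

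The interferon list was read because several Ms4a genes are known to respond to interferon. Of 13 genes 5 rose at 12 weeks (Oas1a, Rtp4, Oas2, Zbp1 and Cxcl10) and 3 at 24 weeks (Oas1a, Rtp4 and Dhx58). Oas1a, an antiviral enzyme, had differences of 0.53 and 0.67, and Rtp4, an interferon-induced chaperone, of 0.60 and 0.66. With the neutrophil and B-cell covariates, under which 0 of the 7 Ms4a genes and 4 of all genes passed at 12 weeks, the differences were 1.0 for Ms4a6d, 0.81 for Ms4a4c, 0.64 for Ms4a6c, 0.46 for Ms4a6b and 0.11 for Ms4a3. For the dim Ms4a4b the difference was 0.62, against 0.65 without covariates. At 24 weeks the covariates gave -0.03 for Ms4a4c, against 0.85 without them. Ms4a3 had 0.04 against 0.26, and Ms4a4b 0.03 against 0.05. The lowest 24-week values over all alternative fits were -0.09 for Ms4a6d, -0.06 for Ms4a6b and 0.18 for Ms4a6c. Shifts of the monocyte and interferon lists move with the same groups, and their part in the Ms4a differences was not tested.

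How the genes varied from mouse to mouse was described after each group's mean had been taken off, by Pearson's r over the 18 arrays, which share their signal scale and cell mixture. Ms4a4c, Ms4a6b, Ms4a6c and Ms4a6d formed a block over all 18 arrays. Ms4a4c had r = 0.91 with Ms4a6b, 0.91 with Ms4a6c and 0.87 with Ms4a6d, and the remaining pairs of the 4 had 0.77 to 0.81. Among all 19505 genes Ms4a4c was the nearest to Ms4a6b. Ms4a3 had 0.41 to 0.62 with these 4, Ms4a4b had 0.34 to 0.67, and Ms4a7 had 0.13 to 0.32. Without the 3 arrays that correlate least, the pairs of the 4 had 0.64 to 0.84, Ms4a3 had 0.43 to 0.68 with the 4 and Ms4a4b 0.35 to 0.67. These ranges overlap, so the 4 are then less clearly set off from Ms4a3 and Ms4a4b.

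The extremes of each NeuT group were often the same mice. NeuT 12-week replicate 5 had the lowest signal of its group for all 7 genes, and its neutrophil list mean of 9.93 and monocyte list mean of 10.55 were the lowest of its group too. NeuT 24-week replicate 2 was lowest for 5 genes, with list means of 10.27 and 10.55, again the lowest of its group. NeuT 24-week replicate 1 was highest for 5 genes, with the highest monocyte mean, 11.04, but a neutrophil mean of 10.87 inside the range of the others. In BALB/c mice the lists did not always move with the genes. BALB/c 24-week replicate 3 was lowest for 5 genes, yet its monocyte mean of 10.56 and neutrophil mean of 10.28 were the highest of its group. BALB/c 12-week replicate 2 was also lowest for 5 genes. Its neutrophil mean of 9.79 was the lowest of its group, but its monocyte mean of 10.24 was not.

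**Figure D4:**
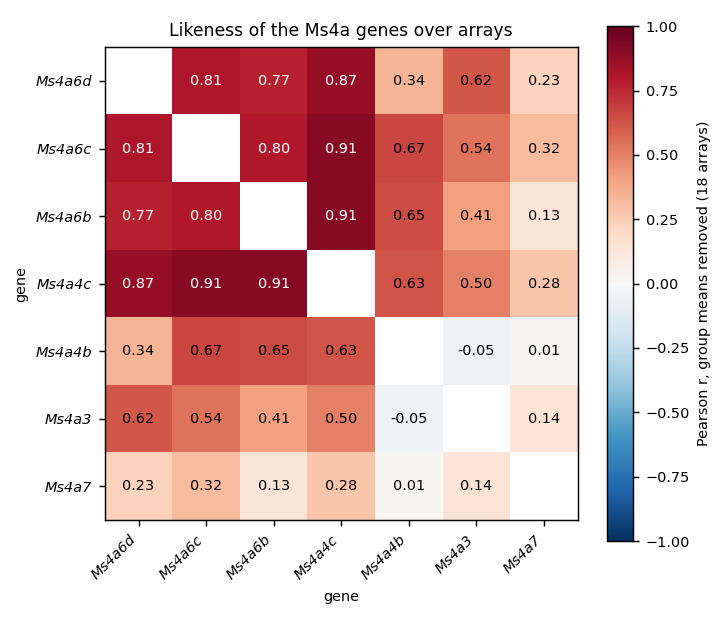
Pearson's r between the Ms4a genes over 18 arrays with each group's mean removed (both axes list the genes; red is positive, blue negative). Ms4a6d, Ms4a6c, Ms4a6b and Ms4a4c form a block of 0.77 to 0.91, and Ms4a3 with Ms4a4b has -0.05.

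Set against the list means in the same way, the block of 4 had its highest positive r with the monocyte list, at 0.66 to 0.68. It had 0.43 to 0.58 with maturing neutrophils, 0.34 to 0.45 with granulocyte-monocyte precursors and 0.09 to 0.26 with the interferon list. With the B-cell list it had -0.65 for Ms4a6d, about as far from 0 as with monocytes, and -0.46 to -0.32 for the other 3. With the stromal list it had -0.54 for Ms4a6c, -0.47 for Ms4a6d, -0.38 for Ms4a4c and -0.12 for Ms4a6b. Ms4a3 had its highest r, 0.86, with the granulocyte-monocyte precursor list, then 0.80 with monocytes, and -0.70 with B cells and -0.56 with stromal cells. Ms4a7, whose signals were dim, had its highest with resident macrophages (0.48), and Ms4a4b with mast cells and basophils (0.56) and with T and NK cells (0.41). Without the 3 arrays the block had 0.58 to 0.81 with monocytes, 0.60 to 0.78 with neutrophils and 0.17 to 0.53 with the interferon list, and Ms4a3 had 0.84 with its precursor list. The ranges for monocytes and neutrophils then overlap, and Ms4a6d had -0.68 with B cells against 0.58 with monocytes. The likeness of the dim genes depended on these arrays. Ms4a7 then had 0.15 with resident macrophages, and Ms4a4b had 0.40 with mast cells and basophils and 0.28 with T and NK cells, both under its 0.45 with monocytes.

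**Figure D5:**
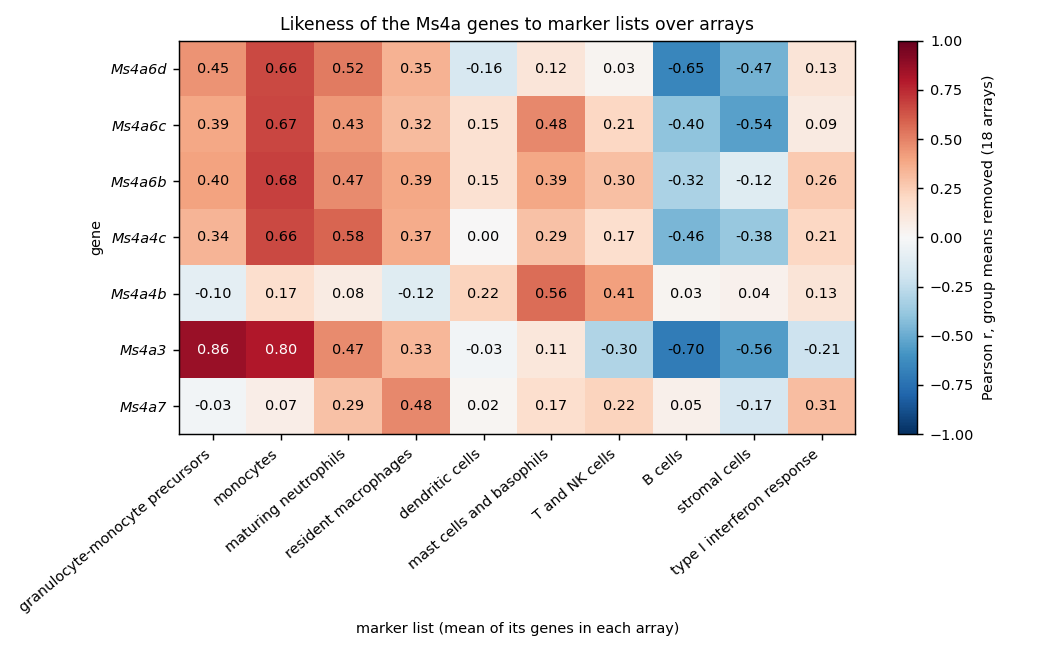
Pearson's r between each Ms4a gene (rows) and the mean of each marker list (columns) over 18 arrays with each group's mean removed. Ms4a3 reaches 0.86 with granulocyte-monocyte precursors, and Ms4a6d, Ms4a6c, Ms4a6b and Ms4a4c reach 0.66 to 0.68 with monocytes.

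The genes outside the family nearest to each member were named by the same measure. For Ms4a3 they were Csf2ra (0.88), the alpha chain of the GM-CSF receptor, B4galt6 (0.88) and Arhgdib (0.86). For Ms4a4c they were Klrb1f (0.93), a lectin-like receptor, Aif1 (0.92), the macrophage protein Iba1, and Rpe (0.91), an enzyme of the pentose phosphate pathway. Rpe was also first outside the family for Ms4a6b (0.90, followed by Nqo2 and Prdx1 at 0.88 each) and for Ms4a6d (0.90, followed by Ssr1 at 0.90 and Map2k1 at 0.89). Ms4a6c was nearest to Fkbp1b (0.93), Emb (0.91) and Ly86 (0.91), the partner of an innate immune receptor. Of the 2 dim genes, Ms4a4b was nearest to Ube2a (0.90), Nlrp3 (0.89) and Cenpc1 (0.88), which had 0.71 to 0.79 without the 3 arrays. Ms4a7 was nearest to Sult1b1 (0.84), Akr1c13 (0.81) and Nkiras1 (0.81), at 0.67 to 0.69 without them.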

How the data were processed

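Signals were measured on 1 array per mouse in 18 bone marrow preparations. The deposited values are log2 signals per probe set. For how the authors made them, the submitters' processing notes name the Transcriptome Analysis Console and RMA, a method that corrects background, makes the arrays' distributions equal and sums up each probe set; no version or build is given in the sources used here. Of 29129 probe sets 19572 had 1 symbol, and the one with the highest mean was kept for 55 genes with several, which left 19505 genes. Dim genes were kept. limma 3.58.1 in R 4.3.3 fitted 1 mean per group over all arrays (14 residual and 8.679 prior degrees of freedom), with two-sided tests and Benjamini-Hochberg adjustment over all genes at 0.05. The fit was tested on simulated data. The members and lists were chosen with earlier results of these data known, and the correlations with list means were added after the values were seen. All members and, outside them, family and partner genes that passed, the first 2 genes of each list and the 3 nearest genes by r were named by rule; other list genes are named as those that passed. Replicates of a group are different mice, numbered in accession order, with no pairing. Alternatives were other normalisations, a dim filter, other moderation, array weights, covariates and leaving out arrays. Figures were drawn with matplotlib 3.10.9.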

Additional observations from a re-analysis of the deposited data

Results flagged for a closer look

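Ms4a7 in NeuT 12-week replicate 4 stood far above the other mice of its group, at a log2 signal of 7.12 where the others had 6.61 to 6.75. The gap took 0.73 of the group's range, above the critical 0.71 for 5 samples. It was the 1 such value in 28 groups of values tested, and chance flags about 1 in 20. The signal lies under the negative control median of 7.35, and the array is 1 of the 3 that correlate least with the others.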

How the results depend on the processing

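At 12 weeks 6 members passed. With neutrophil and B-cell covariates 0 did, and 5 had an unadjusted limma p under 0.05, a share not counted over all genes. After quantile normalisation once more and after cyclic loess 5 passed, each without Ms4a3. Leaving out 1 array gave 5 to 6. At 24 weeks 0 passed, and leaving out 1 array gave 0 to 4, the highest without NeuT 24-week replicate 2. For age in BALB/c mice 0 passed, against 4 with array weights (12.2% of all genes), 1 in a fit on only the groups compared (0.938%), 1 with the covariates (2.03%) and 3 without the 3 arrays that correlate least (6.55%); leaving out 1 array gave 0 to 1. For the difference of the NeuT effects and for age in NeuT mice 0 passed in every fit run, including without each array. The cause was not tested. No called difference of a member turned its sign. A filter on dim genes removed Ms4a4b and Ms4a7 and tested 14004 genes. Over all genes 749 passed at 12 weeks (82.1% higher; 67.4% and 68.6% after these 2 normalisations), from 230 without BALB/c 12-week replicate 2 to 1363 without NeuT 12-week replicate 5, and 2088 with array weights. At 24 weeks 274 passed (84.3% higher, with 69.3% and 72.3% after these 2 normalisations). Leaving out 1 array gave from 8, without NeuT 24-week replicate 1, to 641, without replicate 2. At that age a fit on only the groups compared left 1 gene, the covariates left 2, and dropping the 3 arrays together left 15. The covariates left 4 genes at 12 weeks. For age in BALB/c mice 113 passed, from 0 without BALB/c 24-week replicate 1 to 589 without replicate 3, with 1277 without the 3 arrays and 2375 with array weights. Depth has no count here, and signals under the negative control median limit Ms4a4b and Ms4a7. No paired analysis was possible because each array is from a different mouse and the labels give no pairing.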
